A study of Mus musculus with 12 samples.

Results

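The genes described here are 9 genes that mark or are strongly used by infiltrating monocytes, *Ccr2*, *Ly6c2*, *Plac8*, *Ms4a4c*, *Fn1*, *Vcan*, *Msr1*, *Arg1* and *Chil3*. They were found by gene symbol among the 54833 genes of the count table, and all 9 were among the 21495 genes with enough counts to be tested. RNA-seq was run on tissue around the hematoma in the caudate putamen of the injected side, taken 24 h after surgery from male wild-type C57BL/6 mice. Mice of 2 ages, young (8 to 10 weeks) and aged (20 to 22 months), had either ICH or sham surgery, which made 4 groups of 3 samples. Intracerebral hemorrhage (ICH) was produced by injecting collagenase type IV, an enzyme that breaks down the vessel wall, and sham mice received saline in its place. The mice were perfused before the brain was taken, and each sample pooled the tissue of 2 to 3 mice. The comparisons ask how the brain responds to ICH at each age and whether that response changes with age.

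Classical monocytes are made in the bone marrow, carry much Ly6C on their surface and leave the marrow and enter injured tissue by means of the chemokine receptor CCR2, which binds CCL2 and CCL7. In the tissue they lose Ly6C and become macrophages that take up debris through scavenger receptors, make matrix such as fibronectin and, in repair programs, switch on arginase 1 and the chitinase-like protein YM1, which *Chil3* encodes. After brain hemorrhage these cells accumulate around the hematoma beside neutrophils and resident microglia. None of the 9 genes belongs to monocytes alone. Endothelial cells and fibroblasts make fibronectin, oligodendrocyte precursors and astrocytes make versican, neutrophils express *Chil3*, and resident macrophages express *Msr1*. In bulk tissue, more cells of a type and more RNA per cell cannot be told apart.

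The counts on genes totalled 28410896 to 37785160 per sample. Markers of striatal neurons such as *Drd1* were present in all 12 samples. The 10 markers summed to 2008 to 3271 CPM (counts scaled to the library size, with TMM factors) in young sham, 665.5 to 1912 CPM in young ICH, 1718 to 2873 CPM in aged sham and 450.1 to 2114 CPM in aged ICH. Their log2FC of ICH vs. sham was negative in 10 of 10 at both ages, with medians of −0.95 and −1.11 and 1 called lower (*Foxp1*), and its part in the levels of the 9 genes was not tested. The 11 markers of homeostatic microglia summed to 291 to 362.2 CPM over the 12 samples, with overlap of all groups. For the 9 monocyte genes the sample aged sham replicate 2 stood apart. It was the lowest of its group in 8 of 9 genes and the lowest of all 12 samples in 5 of 9. Young sham replicate 1 was the lowest of all 12 samples in 3 other genes. Without aged sham replicate 2, the log2FC of aged ICH vs. aged sham was 1.37 for *Ccr2*, 0.057 for *Ly6c2*, 0.99 for *Plac8*, 0.70 for *Ms4a4c*, 0.81 for *Fn1*, −0.19 for *Vcan*, 1.72 for *Msr1*, 2.16 for *Arg1* and 2.496 for *Chil3*. Of these, *Fn1*, *Msr1*, *Arg1* and *Chil3* were called (edgeR, adjusted P = 0.0225, 0.0222, 0.0327 and 0.012). Without aged sham replicate 3, the highest of its group in 6 of 9 genes, it was 2.46 for *Ccr2*, 3.04 for *Msr1*, 3.75 for *Arg1* and 3.56 for *Chil3*, all called.

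In young mice, 5 of the 9 genes were called higher in ICH than in sham tissue (*Ccr2*, *Fn1*, *Msr1*, *Arg1* and *Chil3*), against 9.89% of all genes tested (edgeR quasi-likelihood test, adjusted P under 0.05 over all genes tested), and 0 were called lower, against 9.23%. In aged mice the same 5 genes were called higher, against 7% of all genes tested, and 0 lower, against 6.15%. The median log2FC of the 9 genes was 1.53 in young and 1.46 in aged mice, while that of all genes tested was 0.022 and 0.0018. Without aged sham replicate 1, aged ICH replicate 1 or aged ICH replicate 3, 2 of the 9 were called in aged mice (*Fn1* and *Chil3*), and with only the aged groups in the fit 3 were (*Fn1*, *Arg1* and *Chil3*). Every ICH sample lay above every sham sample of its age in 5 genes in young mice, against 18.5% of all genes, and in 7 in aged mice, against 17.8%. *Arg1* and *Chil3* differed most and *Fn1* least among the 5. *Ly6c2*, *Plac8* and *Ms4a4c* were not called at either age, and *Vcan*, also not called, had a log2FC below 0 at both. By the criterion of the study (FC > 1.5 or FC < 0.67 with an unadjusted P under 0.05), 6 genes were higher in young ICH, against 8.66% of all genes, and 6 in aged ICH, against 7.24%, with *Plac8* as the added gene at both ages.

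**Figure D1:**
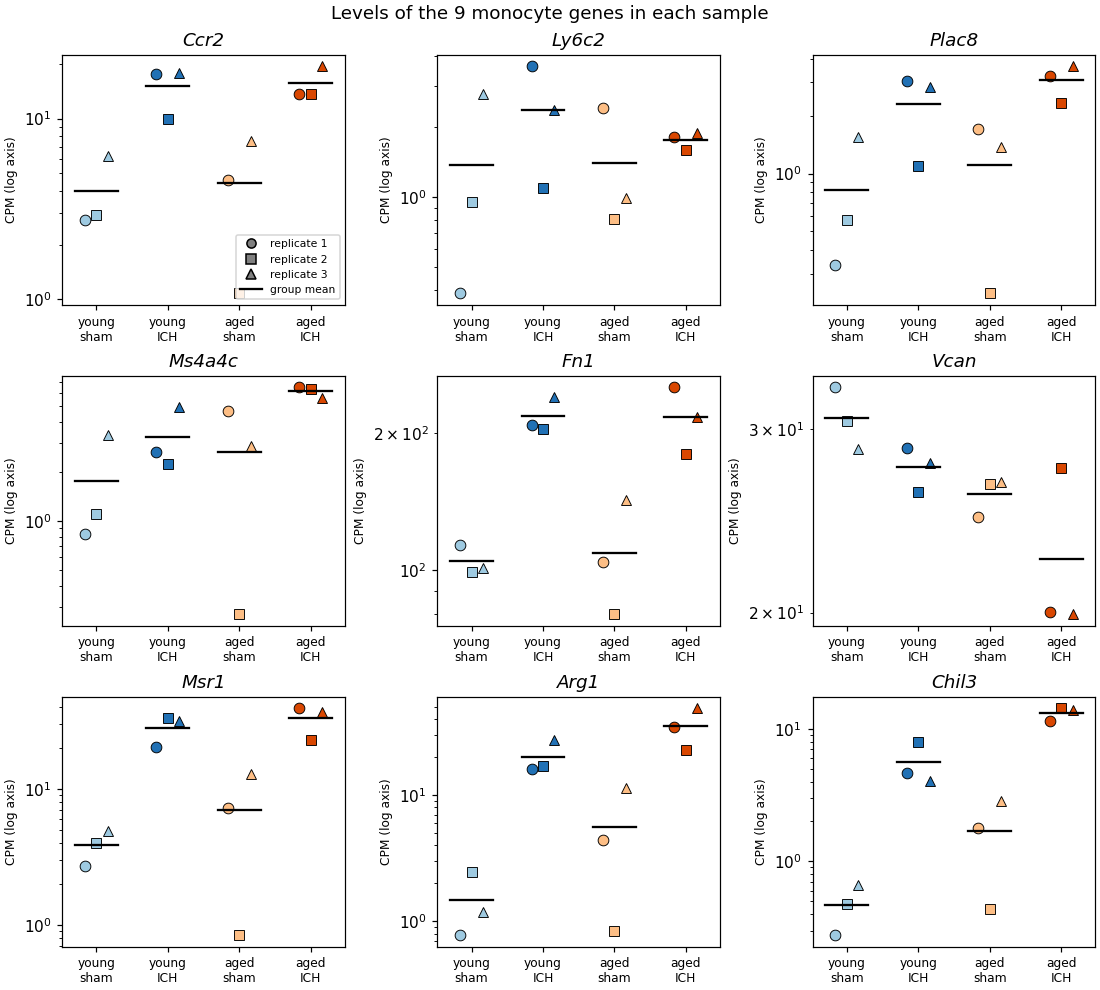
Level of each of the 9 genes in each of the 12 samples in CPM on a log axis, with the 4 groups along the x axis, a marker shape for each replicate and a line at the group mean. Every ICH sample lies above every sham sample of its age for Ccr2, Fn1, Msr1, Arg1 and Chil3, and aged sham replicate 2 is the lowest sham sample of Ccr2, Plac8, Ms4a4c, Fn1 and Msr1.

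*Ccr2*, the receptor that brings classical monocytes out of the marrow and into tissue, lies on chromosome 9 of GRCm38 (124101950 to 124113557, forward strand). Its promoter is shown because, among the 9, the level of this gene most closely followed the mean of all 9, itself included. The 250 bases before its start in RefSeq (GRCm38.p6, chr9:124101933-124102182, forward strand) held none of the 7 motifs searched, and so no capitals. The RefSeq start lies downstream of the start of the gene given above, and 233 of these 250 bases fall inside the gene.
Ccr2: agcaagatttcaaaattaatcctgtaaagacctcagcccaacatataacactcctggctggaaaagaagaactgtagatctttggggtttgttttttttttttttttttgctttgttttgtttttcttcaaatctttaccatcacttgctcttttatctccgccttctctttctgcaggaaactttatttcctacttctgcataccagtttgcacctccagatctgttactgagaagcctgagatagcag
*Ccr2* stood at 2.74, 2.92 and 6.24 CPM in young sham replicates 1 to 3 and at 17.6, 9.88 and 17.9 CPM in young ICH replicates 1 to 3. In aged mice it stood at 4.60, 1.08 and 7.49 CPM in sham and at 13.7, 13.7 and 19.4 CPM in ICH replicates 1 to 3. All ICH samples were above all sham samples of both ages, and the ranges of both ages overlapped within sham and within ICH. The log2FC of ICH vs. sham was 1.94 ± 0.52 (SE) in young mice (edgeR, adjusted P = 0.0249) and 1.82 ± 0.52 in aged mice (edgeR, adjusted P = 0.0395). Both calls were close to the threshold. In young mice the adjusted P was 0.0787 without young sham replicate 1, 0.1 without young sham replicate 2, 0.0609 without young ICH replicate 1 and 0.0646 without young ICH replicate 3 (edgeR). In aged mice it was 0.111 without aged sham replicate 1, 0.0646 without aged sham replicate 2, 0.0926 without aged ICH replicate 1 and 0.115 without aged ICH replicate 3 (edgeR). Leaving out young sham replicate 2 or young ICH replicate 1 gave 0.052 and 0.05 in aged mice, and with the aged groups alone in the fit it was 0.0651 (edgeR).

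The ligands of CCR2 were also higher in ICH tissue. *Ccl2*, the main ligand, had a mean of 2.56 ± 0.88 CPM in young sham and 14.3 ± 5.45 CPM in young ICH (SD, n = 3), and its log2FC was 2.48 in young and 2.59 in aged mice (edgeR, adjusted P = 0.0216 and 0.0222). *Ccl7*, a further ligand, had a log2FC of 2.92 in young and 2.64 in aged mice (edgeR, adjusted P = 0.0055 and 0.0104). *Ccl12*, which is close to *Ccl2* in sequence, was called higher in aged mice only, with a log2FC of 1.76 (edgeR, adjusted P = 0.0372), and had 1.16 in young mice (edgeR, adjusted P = 0.119). The difference between these responses was not called, as 0 genes were called for the interaction. In the list of 17 monocyte chemoattractants and their receptors, 8 were higher and 2 lower in young ICH, with a median log2FC of 0.90, and 7 were higher and 2 lower in aged ICH, with a median of 0.83. The summed level of this list, however, was lower in every ICH sample than in every sham sample of its age. It was 1087 to 1166 CPM in young sham and 898.6 to 937.5 CPM in young ICH. In aged mice it was 896.9 to 949.6 CPM in sham and 840.4 to 883.5 CPM in ICH. *Csf2rb*, the shared receptor chain for GM-CSF and IL-3, was higher with a log2FC of 1.38 and 1.63 in young and aged mice. *Cx3cl1*, the neuronal ligand of the fractalkine receptor, was lower with a log2FC of −0.73 and −0.61.

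*Ly6c2* encodes the Ly6C antigen by which classical monocytes are sorted, and lies on chromosome 15 (75108158 to 75111970, reverse strand). Its copy *Ly6c1*, which endothelial cells express, lies nearby (75044018 to 75048830, reverse strand). The coding sequences of both genes are 97.7% identical, with 9 of 393 bases different, and 15.8% of the 100-base windows of the *Ly6c2* transcript also occur in *Ly6c1*. No source used here tells how reads that fit both were counted, and the level of *Ly6c2* is uncertain to that extent. The first 120 coding bases of both genes in the GRCm38 annotation are shown, since no stretch of that length holds more of the 9 differences. They are thus the least alike part of the coding sequences. Capitals mark the 6 bases that differ in this stretch.
Ly6c2: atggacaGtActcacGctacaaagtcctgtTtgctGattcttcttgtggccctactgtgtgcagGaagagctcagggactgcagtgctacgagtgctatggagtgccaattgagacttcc
Ly6c1: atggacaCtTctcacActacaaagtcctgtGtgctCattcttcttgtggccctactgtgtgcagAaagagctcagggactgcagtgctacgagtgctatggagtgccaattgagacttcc
*Ly6c2* stood at 0.387, 0.952 and 2.77 CPM in young sham and at 3.63, 1.10 and 2.36 CPM in young ICH replicates 1 to 3. In aged mice it stood at 2.42, 0.809 and 0.988 CPM in sham and at 1.81, 1.59 and 1.89 CPM in ICH replicates 1 to 3. The groups overlapped in every comparison, and these levels rest on 14 to 125 counts per sample, while *Ly6c1* had 1339 to 3153. The log2FC of ICH vs. sham was 0.81 in young mice (95% interval −0.54 to 2.16, edgeR, adjusted P = 0.394) and 0.33 in aged mice (95% interval −1.04 to 1.70, edgeR, adjusted P = 0.77). The intervals include both no difference and a log2FC as large as 1.70. *Ly6c1* had a log2FC of 0.59 in young mice (edgeR, adjusted P = 0.0167) and 0.35 in aged mice (edgeR, adjusted P = 0.133). The 10 endothelial markers, of which it is one, summed to 345.5 to 418.2 CPM in young sham and 496 to 531.6 CPM in young ICH. In aged mice they summed to 386.6 to 441.1 CPM in sham and 452.8 to 560.2 CPM in ICH. The part of these cells in the *Ly6c2* counts was not tested. Of the Ly6 family, 3 of 6 tested genes were higher in young and 1 in aged ICH.

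*Plac8*, a small cysteine-rich protein abundant in classical monocytes, lies on chromosome 5 (100553725 to 100572245, reverse strand), and *Ms4a4c*, a membrane-spanning protein of the Ms4a family found in monocytes, on chromosome 19 (11404770 to 11427246, forward strand). *Ms4a4c* overlaps the pseudogene *Gm5692* and shares 1.72% of its 100-base windows with *Ms4a4b*. RefSeq promoters were matched for 6 of the 9 genes. They were searched on both strands for PU.1 (GAGGAA), NF-kB (GGGNNTTCC), STAT (TTCNNNGAA), AP-1 (TGANTCA), C/EBP (TTGCNNAA), the interferon element ISRE (GAAA, any 2 bases, GAAA) and HIF (ACGTG). PU.1 is the factor that directs the myeloid lineage. Its letters were found in 3 of these 6 promoters, *Ly6c2*, *Plac8* and *Ms4a4c*, against 23.1% of the 27025 promoters of that table. They also occurred in the promoter of *Ly6c1*, the copy that endothelial cells express, 158 bases before its start. The 3 are shown because they belong to the genes that most mark monocytes, with the letters of each match in capitals. The stretches are chr15:75111972-75112221 (reverse strand), chr5:100572206-100572455 (reverse strand) and chr19:11407411-11407660 (forward strand).
Ly6c2: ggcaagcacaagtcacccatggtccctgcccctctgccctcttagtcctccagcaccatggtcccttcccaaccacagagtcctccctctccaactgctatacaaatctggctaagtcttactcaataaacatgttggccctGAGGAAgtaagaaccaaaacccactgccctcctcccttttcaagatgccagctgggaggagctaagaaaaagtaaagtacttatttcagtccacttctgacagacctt
Plac8: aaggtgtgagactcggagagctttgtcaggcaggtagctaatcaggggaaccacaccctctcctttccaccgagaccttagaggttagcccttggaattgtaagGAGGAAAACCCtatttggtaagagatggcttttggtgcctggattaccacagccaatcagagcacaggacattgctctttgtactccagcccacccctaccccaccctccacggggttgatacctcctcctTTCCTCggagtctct
Ms4a4c: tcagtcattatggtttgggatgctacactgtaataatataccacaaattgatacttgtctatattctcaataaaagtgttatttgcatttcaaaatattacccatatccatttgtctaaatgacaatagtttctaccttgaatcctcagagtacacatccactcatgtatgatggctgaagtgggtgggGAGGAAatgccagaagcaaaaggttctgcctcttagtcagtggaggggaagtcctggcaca
In *Plac8* the PU.1 letters lay 146 and 15 bases before the start, and the former overlapped the NF-kB letters 144 bases before it, which 4.88% of all promoters held. In *Ly6c2* and *Ms4a4c* they lay 108 and 61 bases before the start. The RefSeq starts of *Ms4a4c* and *Plac8* also lie downstream of the gene starts above, with 250 and 40 of the 250 bases inside the gene. A match of letters is not a bound site.

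*Plac8* stood at 0.332, 0.571 and 1.55 CPM in young sham and at 3.05, 1.10 and 2.84 CPM in young ICH replicates 1 to 3. In aged mice it stood at 1.72, 0.236 and 1.38 CPM in sham and at 3.23, 2.34 and 3.65 CPM in ICH replicates 1 to 3. Young ICH replicate 2 lay below young sham replicate 3, whereas all 3 aged ICH samples lay above all aged sham samples. The log2FC was 1.53 ± 0.64 in young mice (edgeR, adjusted P = 0.116) and 1.46 ± 0.62 in aged mice (edgeR, adjusted P = 0.142), so that neither was called. The lowest sample, aged sham replicate 2, held 7 counts. *Ms4a4c* stood at 0.829, 1.11 and 3.33 CPM in young sham and at 2.64, 2.23 and 4.92 CPM in young ICH replicates 1 to 3. In aged mice it stood at 4.70, 0.270 and 2.88 CPM in sham and at 6.52, 6.33 and 5.59 CPM in ICH replicates 1 to 3. Young groups overlapped, and all aged ICH samples were above every sample of the other 3 groups. The log2FC was 0.90 ± 0.71 in young mice (edgeR, adjusted P = 0.406) and 1.23 ± 0.68 in aged mice (edgeR, adjusted P = 0.262). Of the other Ms4a genes, 5 of the 7 tested were higher in young and 4 in aged ICH, with a median log2FC of 1.77 and 1.67. *Ms4a6d*, a macrophage member, rose from 6.49 ± 1.41 to 22.3 ± 1.98 CPM in young mice (SD, n = 3), with a log2FC of 1.78 (edgeR, adjusted P = 0.00246).

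*Fn1* encodes fibronectin, a matrix protein that monocytes and the vessel wall deposit at sites of injury, and lies on chromosome 1 (71585520 to 71653200, reverse strand), where *Apol7d* overlaps it on the other strand. It was the most abundant of the 9 genes per length. Its level was 113.7, 98.7 and 100.7 CPM in young sham and 208.5, 204.6 and 241 CPM in young ICH replicates 1 to 3. In aged mice the level was 104.2, 79.7 and 142.8 CPM in sham and 253, 180.5 and 217.5 CPM in ICH replicates 1 to 3. All ICH samples were above all sham samples. *Fn1* rose with a log2FC of 1.06 ± 0.18 in young mice (edgeR, adjusted P = 0.00347) and 0.99 ± 0.18 in aged mice (edgeR, adjusted P = 0.00795). Among the 17 partners of fibronectin and versican, such as integrins, CD44 and matrix proteases, 7 were higher and 1 lower in young ICH and 8 higher and 3 lower in aged ICH, with a median log2FC of 0.50 and 0.40. *Tnc*, the matrix protein tenascin C, had a log2FC of 2.32 and 2.30, and *Adamts9*, a protease that cuts versican, of 2.06 and 1.70. Endothelial markers were higher beside *Fn1*, with 6 of 10 called in young and 4 of 10 in aged ICH and a median log2FC of 0.50 and 0.24. Of the 9 fibroblast markers, 2 were higher at each age. The part of these cells in the *Fn1* level was not tested.

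*Vcan* encodes versican, a large proteoglycan of the matrix, and lies on chromosome 13 (89655312 to 89742509, reverse strand), where *Gm16318* and *Gm4117* overlap it. It was the one gene of the 9 with a log2FC of ICH vs. sham below 0. Its level was 32.9, 30.6 and 28.7 CPM in young sham and 28.8, 26.1 and 27.9 CPM in young ICH replicates 1 to 3. In aged mice the level was 24.7, 26.6 and 26.7 CPM in sham and 20.0, 27.6 and 19.9 CPM in ICH replicates 1 to 3. The ranges of ICH and sham samples overlapped at both ages, with aged ICH replicates 1 and 3 the lowest of all 12. The log2FC was −0.16 in young mice (95% interval −0.41 to 0.09, edgeR, adjusted P = 0.369) and −0.21 ± 0.11 in aged mice (edgeR, adjusted P = 0.256). Without aged ICH replicate 2 it was called lower in aged mice, with a log2FC of −0.38 (edgeR, adjusted P = 0.015). Oligodendrocyte precursors are a main source of versican in brain, and their 8 markers summed to 239.7 to 312.3 CPM in aged sham and 199 to 234.6 CPM in aged ICH. In young mice these sums overlapped, at 266.8 to 356.8 CPM in sham and 257.2 to 332.5 CPM in ICH. The 1 precursor marker called was *Gpr17*, lower in aged ICH with a log2FC of −1.19 (edgeR, adjusted P = 0.00955). Its part in the level of *Vcan* was not tested.

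*Msr1* encodes the macrophage scavenger receptor that takes up modified lipoproteins and debris, and lies on chromosome 8 (39581685 to 39642673, reverse strand). Its level was 2.74, 4.03 and 4.92 CPM in young sham and 20.4, 33.1 and 31.6 CPM in young ICH replicates 1 to 3. In aged mice the level was 7.22, 0.843 and 12.9 CPM in sham and 39.4, 22.9 and 37.1 CPM in ICH replicates 1 to 3. Every ICH sample was above every sham sample, and the aged sham samples spread 15.3-fold from the lowest to the highest. *Msr1* rose with a log2FC of 2.87 ± 0.62 in young mice (edgeR, adjusted P = 0.00907) and 2.24 ± 0.59 in aged mice (edgeR, adjusted P = 0.0295). The call in aged mice was lost without aged sham replicate 1, aged ICH replicate 1 or aged ICH replicate 3, with an adjusted P of 0.093, 0.101 and 0.0795, and with the aged groups alone in the fit, with 0.0726 (edgeR). Of 12 other scavenger receptors, 5 were higher and 1 lower in young ICH and 4 higher in aged ICH. *Stab1*, which clears matrix fragments in tissue macrophages, had a log2FC of 1.40 and 1.15, and *Cd68*, a lysosomal protein of phagocytes, of 0.92 and 0.85.

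*Arg1* encodes arginase 1, which turns arginine into ornithine and is the most used label of alternatively activated macrophages, and lies on chromosome 10 (24915221 to 24927484, reverse strand). Its level was 0.774, 2.44 and 1.19 CPM in young sham and 16.1, 17.1 and 27.4 CPM in young ICH replicates 1 to 3. In aged mice the level was 4.40, 0.843 and 11.4 CPM in sham and 34.8, 22.8 and 48.7 CPM in ICH replicates 1 to 3. Every ICH sample was above every sham sample, while aged sham replicates 1 and 3 were above all young sham samples and replicate 2 was not. *Arg1* rose 13.8-fold in young mice, with a log2FC of 3.79 ± 0.72 (edgeR, adjusted P = 0.0052), and 6.32-fold in aged mice, with a log2FC of 2.66 ± 0.64 (edgeR, adjusted P = 0.0207). The call in aged mice was lost without aged sham replicate 1, aged ICH replicate 1 or aged ICH replicate 3, with an adjusted P of 0.0821, 0.0652 and 0.0704 (edgeR). The size in aged mice also rested on single sham samples, with 4.46-fold without aged sham replicate 2 and 13.5-fold without aged sham replicate 3. Of 10 other genes of arginine metabolism, 4 were higher at each age, with a median log2FC of 0.03 and 0.10. They were *Asl*, *Nos2*, *Odc1* and *Sat1* at both ages. *Odc1*, which makes polyamines from ornithine, had a log2FC of 0.96 and 0.93, and *Sat1*, which breaks polyamines down, of 0.79 and 0.78. *Arg2*, the mitochondrial arginase, was not called, with −0.52 and −0.32 (edgeR, adjusted P = 0.135 and 0.394).

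*Chil3* encodes the chitinase-like protein YM1, which is secreted by alternatively activated macrophages and neutrophils, and lies on chromosome 3 (106147554 to 106167564, reverse strand). Its copy *Chil4* is 94.4% identical in coding sequence, but had only 0 to 4 counts per sample, against 10 to 444 for *Chil3*, and 5.42% of the windows of *Chil3* were shared. The promoter (chr3:106167565-106167814, reverse strand) is shown because, of the 6 matched promoters, it alone held the STAT letters TTCNNNGAA. They lie in capitals 172 bases before the start, and 7.18% of all promoters held such letters. These letters do not tell which STAT factor, if any, binds there.
Chil3: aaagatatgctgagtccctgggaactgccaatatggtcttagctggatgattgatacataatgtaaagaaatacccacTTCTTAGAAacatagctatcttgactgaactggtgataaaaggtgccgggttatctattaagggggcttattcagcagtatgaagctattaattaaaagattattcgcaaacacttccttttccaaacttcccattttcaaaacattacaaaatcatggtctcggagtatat
*Chil3* stood at 0.276, 0.476 and 0.660 CPM in young sham and at 4.67, 8.02 and 4.07 CPM in young ICH replicates 1 to 3. In aged mice it stood at 1.79, 0.438 and 2.88 CPM in sham and at 11.4, 14.3 and 13.9 CPM in ICH replicates 1 to 3. Every ICH sample was above every sham sample, and the 3 aged ICH samples were above the 3 young ICH samples. *Chil3* rose 11.9-fold in young mice, with a log2FC of 3.58 ± 0.55 (edgeR, adjusted P = 0.00227), and 7.69-fold in aged mice, with a log2FC of 2.94 ± 0.48 (edgeR, adjusted P = 0.00547). With *Fn1*, it was called at both ages without any one sample. Of 15 genes of alternative activation, *Retnla*, *Chil4*, *Ccl24* and *Pdcd1lg2* had too few counts to be tested. Of the other 11, 6 were higher in young and 2 in aged ICH, with a median log2FC of 0.46 and 0.57. The log2FC was positive in 9 of the 11 in young and 10 in aged mice. In aged mice *Cd163* was the gene below 0, with −0.75, and was not called. *Il4ra*, the receptor for IL-4 and IL-13, had a log2FC of 1.53 and 1.55, and *Tgm2*, a protein-linking enzyme of such macrophages, of 1.25 and 1.18.

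Neutrophil markers moved with *Chil3*. The 14 markers summed to 11.4 to 14 CPM in young sham, 22.2 to 40.4 CPM in young ICH, 16.5 to 28.3 CPM in aged sham and 41.4 to 58 CPM in aged ICH. The group medians followed the same order as those of *Chil3*, with every aged ICH sample above every sample of the other groups. That order of medians was not particular to neutrophil markers. It also held for *Plac8*, *Fn1*, *Msr1*, *Arg1* and the summed classical monocyte genes described below, but not for *Ccr2*, *Ly6c2*, *Ms4a4c* and *Vcan*. Of the 10 neutrophil markers tested, 7 were higher in young and 6 in aged ICH, with a median log2FC of 2.84 and 1.46, while the defining markers *Ly6g*, *Camp*, *Elane* and *Mpo* had too few counts to be tested. With age, 10 of 10 neutrophil markers had a positive log2FC in sham and in ICH tissue, with medians of 2.07 and 1.25 and 0 called. This direction was shared. Of the classical monocyte genes described below, 18 of 19 were positive with age in sham and 19 of 19 in ICH tissue. Their medians were 0.78 and 0.47, with 0 called. The part of neutrophils in the level of *Chil3* was not tested.

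**Figure D2:**
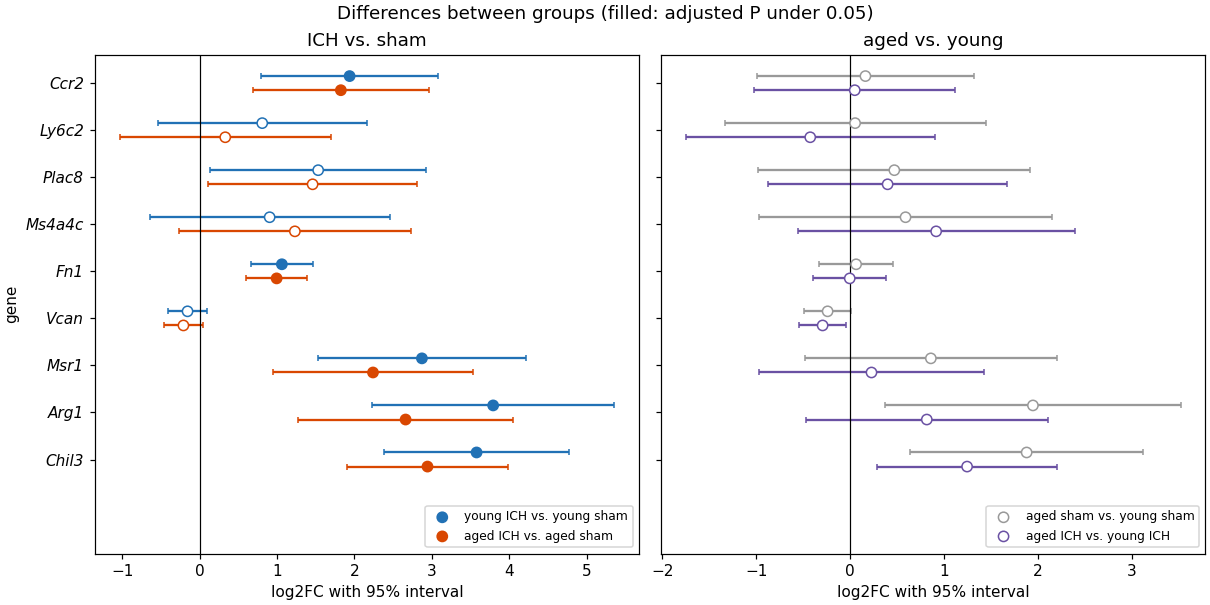
log2FC of each of the 9 genes with its 95% interval (edgeR, all 12 samples), for ICH vs. sham in young and aged mice at the left and for aged vs. young mice in sham and ICH tissue at the right. Filled circles are called at an adjusted P under 0.05, which are 5 genes at each age at the left and 0 at the right.

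With age, 0 of the 9 genes were called in sham tissue, against 0.102% of all genes tested in either direction, and 0 in ICH tissue, against 0.0558% (edgeR, adjusted P under 0.05). At an unadjusted P under 0.05 there were 2 in sham tissue, *Arg1* and *Chil3*, against 12.3% of all genes, and 2 in ICH tissue, *Chil3* and *Vcan*, against 9.54%. By DESeq2, *Chil3* was called between the sham groups (adjusted P = 0.0265) and no other gene of the 9 was called with age. By the criterion of the study, *Arg1* and *Chil3* were higher in aged than young sham tissue, against 2.82% of all genes, and *Chil3* in aged than young ICH tissue, against 2.21%. The log2FC of aged vs. young sham was 1.88 ± 0.57 for *Chil3* (edgeR, adjusted P = 0.241) and 1.94 ± 0.72 for *Arg1* (edgeR, adjusted P = 0.315). For both genes the groups overlapped through aged sham replicate 2. Without it the values were 2.32 for *Chil3* and 2.45 for *Arg1* (edgeR, adjusted P = 0.0604 and 0.129), and without aged sham replicate 3 they were 1.26 and 0.85 (edgeR, adjusted P = 0.627 and 0.764).

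In ICH tissue, *Chil3* was higher in 3 of 3 aged samples, with a log2FC of aged vs. young of 1.24 (95% interval 0.29 to 2.2, edgeR, adjusted P = 0.405), and *Ms4a4c* likewise, with 0.91 ± 0.68 (edgeR, adjusted P = 0.705). Aged samples all above young samples were seen in 6.9% of all genes tested in that comparison. *Arg1* had a log2FC of 0.81 ± 0.59 (edgeR, adjusted P = 0.696), *Ccr2* of 0.05 and *Fn1* of −0.0064. *Vcan* had a log2FC of aged vs. young of −0.24 ± 0.11 in sham (edgeR, adjusted P = 0.418), where all aged samples were below all young ones, and −0.30 ± 0.11 in ICH (edgeR, adjusted P = 0.454). Aged samples all below young samples were seen in 11.2% of all genes tested between the sham groups. The interaction of age and ICH, which sets the ICH response of aged mice against that of young mice, was called for 0 of the 9 genes and 0% of all genes (edgeR), while DESeq2 called 1 gene, which was none of the 9. It was negative in 8 of the 9 genes, with a median of −0.11, and most so in *Arg1*, with −1.13 ± 0.93, which was −0.038 without aged sham replicate 3 and −1.71 without young sham replicate 2. At an unadjusted P under 0.05 it held 0 of the 9 genes and 2.82% of all genes.

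The 9 genes kept different places in order of level per length. In FPKM (fragments scaled to transcript length and to the size of the library), *Fn1* was first in every group, with 8.56 ± 0.68 in young sham, 19.0 ± 2.02 in young ICH, 9.21 ± 2.78 in aged sham and 19.2 ± 3.17 in aged ICH (SD, n = 3). In young sham tissue *Vcan* was next with 2.04 ± 0.14 FPKM, and the other 7 genes followed from 0.963 FPKM for *Ms4a4c* to 0.276 FPKM for *Chil3*, each overlapping its neighbour. In young ICH tissue *Arg1* was second with 9.25 ± 3.00 FPKM, below *Fn1* in every sample, and above *Msr1* with 4.56 ± 1.12 FPKM. In aged ICH tissue *Arg1* reached 16.5 ± 5.97 FPKM and overlapped *Fn1*, and *Chil3* came next with 8.39 ± 1.03 FPKM, apart from *Arg1* above and *Msr1* below. *Ly6c2* was the lowest of the 9 in both ICH groups, with 0.88 ± 0.47 FPKM in young and 0.67 ± 0.06 FPKM in aged mice. In aged sham tissue only *Fn1* stood apart from its neighbour.

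**Figure D3:**
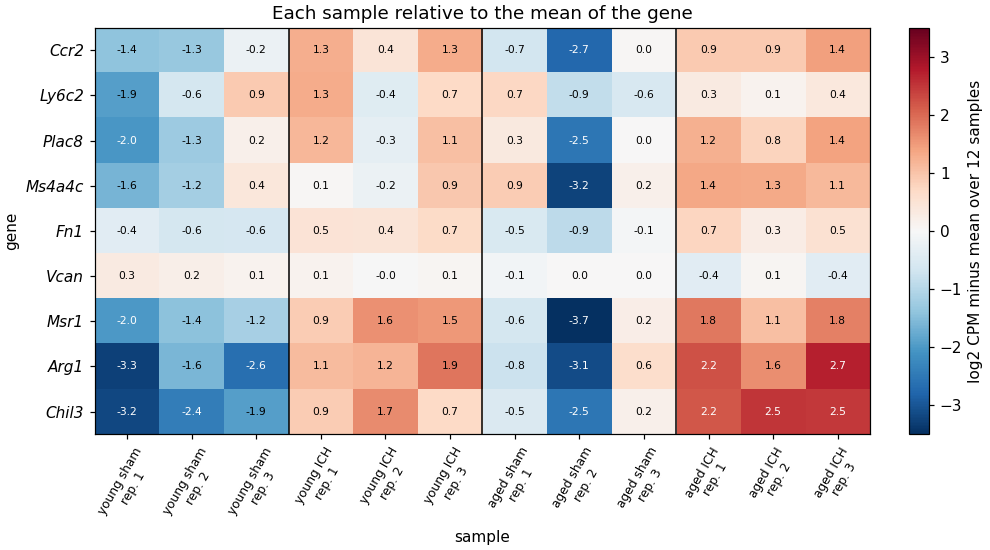
log2 CPM of each gene (rows) in each sample (columns, grouped by age and surgery) minus the mean of that gene over the 12 samples, in color and as a printed number. The column of aged sham replicate 2 is the lowest of its group in 8 of the 9 rows, and the row of Vcan stays near 0 throughout.

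Within groups, 7 of the 9 genes in young sham, 7 in young ICH, 8 in aged sham and 7 in aged ICH spread more than the median gene tested. The genes were not matched by level, and low counts, such as the 7 of *Plac8* in aged sham replicate 2, widen the spread. *Vcan* was below that median in all groups but aged ICH, and *Fn1* in both young groups. The median SD of log2 CPM over the 9 genes was 0.65 in young sham, 0.48 in young ICH, 1.41 in aged sham and 0.27 in aged ICH, against 0.15, 0.19, 0.14 and 0.15 over all genes tested. *Ms4a4c* spread 17.4-fold between the lowest and the highest aged sham sample and 1.17-fold in aged ICH. Over the 12 samples, the 15 pairs among *Ccr2*, *Plac8*, *Ms4a4c*, *Msr1*, *Arg1* and *Chil3* had Pearson's r of 0.77 to 0.957, and of 0.627 to 0.919 once each group was centred on its mean. These 6 genes were picked after their values were seen. The other 6 pairs with *Fn1* and without *Ly6c2* and *Vcan* had r of 0.69 to 0.943, and of 0.492 to 0.785 within groups. The 7 pairs with *Ly6c2* and without *Vcan* had r of 0.411 to 0.808, and of −0.0196 to 0.828 within groups, the lowest with *Fn1*. The 8 pairs with *Vcan* had r of −0.665 to −0.339. These are descriptions of 12 samples in 4 groups, whose genes share library and tissue piece. Among the 9, *Ccr2* followed the mean of the 9 z-scored genes most closely (r = 0.986, and 0.966 within groups), while *Ly6c2* had r = 0.693 and *Vcan* ran opposite (r = −0.468, and −0.149 within groups). Each of the 9 is itself part of that mean, which raises its r. Within groups *Fn1* had r = 0.599. The 5 genes outside the 9 with the highest r to that mean were *Tgfbi* (0.985), *Ptprc* (0.981), *Bcl3* (0.979), *Serpina3n* (0.977) and *Cd74* (0.977), with 0.923 to 0.963 within groups.

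Other genes of classical monocytes were largely higher as well. Of 19 tested of a list of 20, 18 were higher in young and 16 in aged ICH and 0 were lower, with a median log2FC of 1.95 and 1.52. *Thbs1*, the matrix protein thrombospondin 1, rose with a log2FC of 4.28 and 3.56 (edgeR, adjusted P = 0.000745 and 0.00289), and *S100a6*, a calcium-binding protein, with 1.26 and 1.52. Their summed level was 95.8 to 128.4 CPM in young sham, 285.9 to 425.6 CPM in young ICH, 95.02 to 214.8 CPM in aged sham and 425.4 to 501 CPM in aged ICH. Aged sham replicate 2 was again the lowest of all 12 samples. Of 8 tested genes of non-classical monocytes, which patrol vessels, 4 were higher and 1 lower in young ICH and 2 higher in aged ICH. *Nr4a1*, the factor those cells depend on, was the lower one, with a log2FC of −1.24 in young mice (edgeR, adjusted P = 0.0122) and −0.39 in aged mice (edgeR, adjusted P = 0.394). The other 7 of the 8 had a positive log2FC at both ages. Which cells the *Nr4a1* counts came from was not tested.

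**Figure D4:**
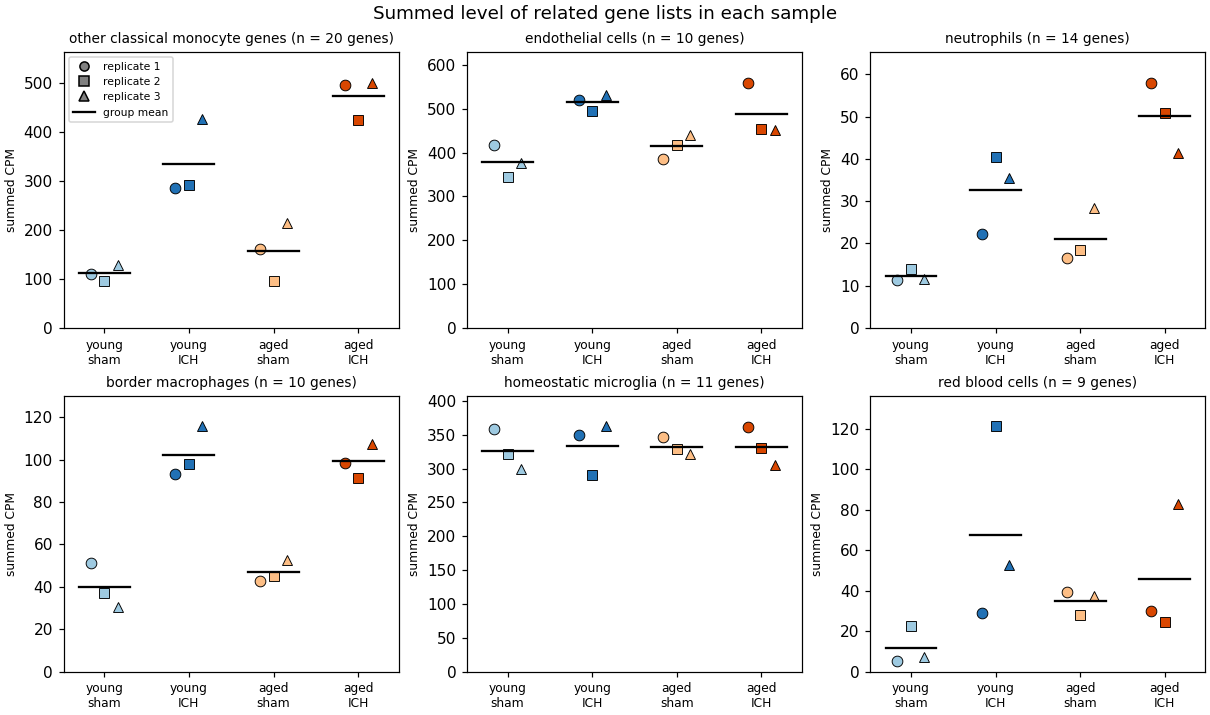
Summed CPM of the genes of 6 lists in each of the 12 samples, on axes that start at 0, with the 4 groups along the x axis, a marker shape for each replicate and a line at the group mean. Classical monocyte, endothelial, neutrophil and border macrophage genes are higher in every ICH sample than in every sham sample of that age. Homeostatic microglia overlap in all groups, and red blood cell genes spread widely within ICH groups.

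Of the 10 border macrophage markers, which cover cells of the meninges and vessels, 5 were higher in young and 4 in aged ICH, with sums of 30.6 to 51.5 CPM in young sham, 93.4 to 115.6 CPM in young ICH, 42.5 to 52.9 CPM in aged sham and 91.5 to 107.5 CPM in aged ICH. Like the classical monocyte genes, their sums lay higher in every ICH sample than in every sham sample of the same age. Both lists hold *F13a1*, which was called higher at both ages, so the sums are not independent. Of the 11 homeostatic microglia markers, 3 were lower in both young and aged ICH and 1 was higher in aged ICH. *P2ry12*, the purine receptor of resting microglia, fell by 0.70 and 0.85 on the log2 scale, and *Siglech* fell by 0.80 and 1.11. Red blood cell markers summed to 5.42 to 22.5 CPM in young sham, 29.0 to 121.1 CPM in young ICH, 28.2 to 39.5 CPM in aged sham and 24.6 to 83.0 CPM in aged ICH. They were thus higher in every young ICH than young sham sample and overlapped in aged mice, and their part in the levels of the 9 genes was not tested. T and NK cell markers summed to 5.27 to 36.9 CPM over all samples, and 2 of 7 tested were higher in young and 0 in aged ICH.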

How the data were processed

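RNA-seq libraries of 12 samples in 4 groups of 3 were analysed, grouped by the labels. The authors aligned reads to GRCm38 with Hisat2, counted them with FeatureCounts and deposited raw counts and FPKM values per gene. Strand and multiple alignments are not given in the sources used here, so that values of overlapping or near-identical genes are uncertain. Counts were tested with edgeR 4.0.16 (limma 3.58.1, R 4.3.3) by the quasi-likelihood test, with TMM scaling, a filterByExpr minimum count of 10, which left 21495 genes, and 4 group means over all 12 samples. P values were adjusted by the Benjamini-Hochberg method over all genes tested, with calls at 0.05. SE was taken from log2FC and F. CPM are counts scaled to TMM library sizes, and log2 CPM for the r and SD values used a prior count of 2. Deposited FPKM were used only for levels between genes. The steps were tested on simulated data. The study counts the pools of a group as 3 biological replicates. Whether they came from separate surgery sessions is not stated, so P values measure the spread between pools.

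The 9 genes and all lists were chosen with earlier results of these data known. Named genes were the 9, and from each list the genes with the smallest P in ICH vs. sham and near-identical copies or ligands. *Drd1*, *Asl*, *Nos2*, *Cd163*, *F13a1* and the genes listed as not tested were named after their values were seen. Alternatives were RLE scaling, DESeq2 1.42.0, no count filter, a replicate block, only the compared groups, the criterion of the study and leaving out each sample. Promoters are RefSeq, GRCm38.p6.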

Additional observations from a re-analysis of the deposited data

How the results depend on the processing

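The count of called genes of the 9 in aged ICH vs. aged sham was the least stable. It was 5 with all samples, 3 with only the aged groups in the fit (*Fn1*, *Arg1* and *Chil3*) and 2 to 6 with one sample left out, with 2 (*Fn1* and *Chil3*) without aged sham replicate 1, aged ICH replicate 1 or aged ICH replicate 3, and 6, with *Vcan* lower, without aged ICH replicate 2. In young mice it was 4 to 5 with one sample left out. Between aged and young sham it was 0 with edgeR, 1 with DESeq2 (*Chil3*) and 2 by the criterion of the study (*Arg1* and *Chil3*), and between aged and young ICH 1 by that criterion (*Chil3*). DESeq2 called 289 genes in all between the sham groups and 192 between the ICH groups, against 22 and 12 with edgeR, and the cause was not tested. Once each group was centred on its mean, same-numbered samples of different groups had r of −0.454 to 0.235 over 18 pairs. Differently numbered ones had r of −0.374 to 0.41 over 36 pairs. With groups of 3, this check cannot tell whether the numbers pair the samples. The replicate block left the counts at 5 and 5, and 0 with age, and turned the interaction of *Ccr2* and *Plac8* to 0.049 and 0.12.

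With one sample left out, values near 0 changed sign. Aged vs. young sham ranged from −0.47 to 0.64 for *Ccr2*, −0.59 to 1.08 for *Ly6c2*, −0.13 to 1.44 for *Ms4a4c* and −0.18 to 0.24 for *Fn1*. Aged vs. young ICH ranged from −0.18 to 0.18 for *Ccr2*, −0.76 to 0.024 for *Ly6c2* and −0.13 to 0.11 for *Fn1*. The interaction ranged from −0.59 to 0.52 for *Ccr2*, −1.51 to 0.16 for *Ly6c2*, −0.92 to 0.37 for *Plac8*, −0.52 to 1.04 for *Ms4a4c*, −0.25 to 0.18 for *Fn1*, −0.22 to 0.027 for *Vcan* and −1.15 to 0.17 for *Msr1*. That of *Arg1* and *Chil3* stayed negative, from −1.71 to −0.038 and from −1.08 to −0.016.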
